A study of [Candida] boidinii with 12 samples.

Results

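LDH is the lactate dehydrogenase gene that was put into the yeast Candida boidinii to make the strain LA001-14. It was taken by its identifier, the single entry named LDH in each deposited file. It is 1 of 5712 coding sequences, and the other 5711 carry identifiers beginning with CB and are called native genes here. Messenger RNA was measured by RNA sequencing in 12 libraries, 3 labelled biological replicates in each of 4 groups sampled at 6 h. The wild type, CICC#33029, was grown on glucose (YPD medium, 2% w/v glucose) or on methanol (YPM medium, 2% w/v methanol). LA001-14 was grown in the same media and, per the labels, carries the cassette PENO1-BtL-LDH-TTEF2 for LDH and the cassette PTDH3-KanR-TTEF2 for kanamycin resistance at random chromosomal sites of the wild type. The wild type is labelled with neither cassette, and all 4 groups share the CICC#33029 background. LA001-14 is a single strain. The sources used here give neither its insertion sites nor the number of LDH copies, so the cassettes and any other change in that strain cannot be told apart.

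Lactate dehydrogenase reduces pyruvate, the end product of glycolysis, to lactate and turns NADH back into NAD+. In Saccharomyces cerevisiae pyruvate on glucose goes mainly to ethanol, and an added lactate dehydrogenase draws on the same pyruvate. By the usual notation the cassette places LDH behind a promoter named ENO1 and before a terminator named TEF2. In S. cerevisiae ENO1 encodes enolase, a glycolytic enzyme, and TEF2 encodes a translation elongation factor. C. boidinii is a methylotrophic yeast, which oxidises methanol in peroxisomes and feeds the product into its sugar metabolism. The files do not pair CB identifiers with gene names, so the native ENO1, TEF2 and other genes of glycolysis were not analysed here and native genes carry no role below.

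LDH was abundant in LA001-14 on glucose, 3.8-fold lower on methanol, and at most 1 read in any wild-type library. In LA001-14 on glucose the coding sequence of 999 bases received 66727, 76402 and 67546 reads in replicates 1, 2 and 3. On methanol it received 29008, 17658 and 16132 reads. In wild type the 3 glucose libraries and methanol replicates 1 and 2 had 0 reads, and methanol replicate 3 had 1 read. The strains therefore did not overlap in any library, and the targeted gene followed the strain labels in all 12.

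In CPM, counts brought to a common library total, here with TMM factors that correct for library composition (TMM-scaled CPM), LDH stood at 7159, 6579 and 7307 in the LA001-14 glucose libraries. It stood at 1999, 1746 and 1793 in the methanol libraries. Every glucose library lay above every methanol library. The means were 7015 ± 385 and 1846 ± 135 CPM (SD, n = 3 each), so LDH fell by 1.93 on the log2 scale on methanol (SE 0.0756, edgeR quasi-likelihood adjusted p = 2.02e-14), a 3.8-fold difference. In this comparison 64.5% of the 5466 genes tested were called at an adjusted p under 0.05, 34.7% higher and 29.7% lower on methanol, so a call alone does not set LDH apart. In bulk RNA, fewer cells with the transcript and less transcript per cell cannot be told apart.

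**Figure D1:**
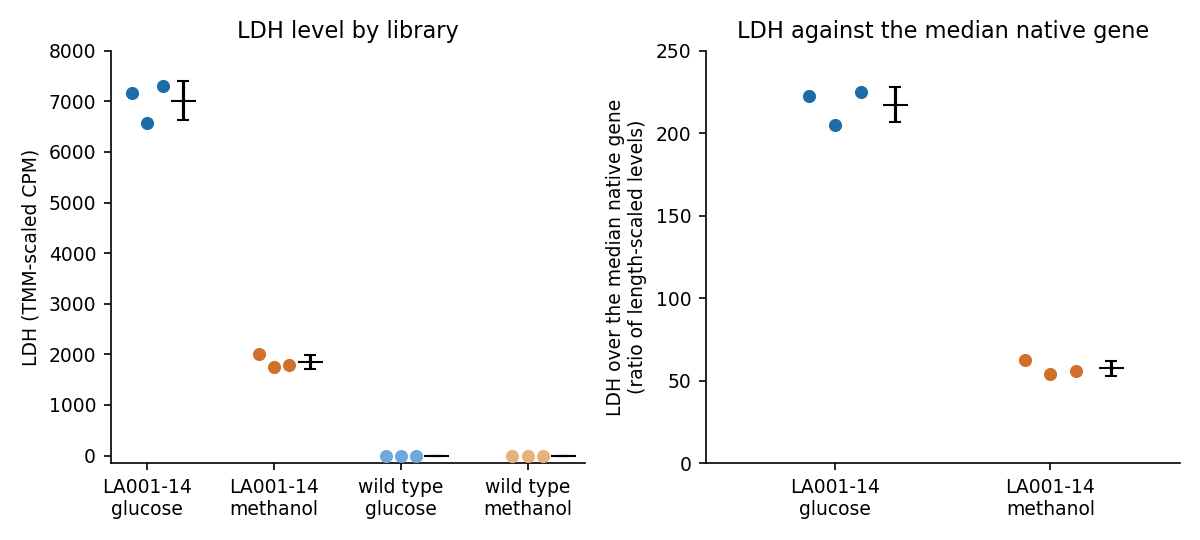
Left, LDH in TMM-scaled CPM in each of the 12 libraries; right, the length-scaled level of LDH divided by that of the median tested native gene of the same library, for LA001-14 only. Points are libraries and the bars beside them are mean ± SD (n = 3); glucose libraries lie between 6579 and 7307 CPM, methanol libraries between 1746 and 1999, and wild type at 0 or near it.

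The fall was of like size in measures that use no scaling factor between libraries. LDH held 0.767%, 0.738% and 0.840% of all reads in the glucose libraries and 0.206%, 0.192% and 0.193% in the methanol libraries. This share changed by -1.99 on the log2 scale (SE 0.064). The authors' deposited FPKM, which divides the share by coding length, gave 7674.5, 7389 and 8403 for LDH on glucose and 2058, 1916.5 and 1935 on methanol. Set against the median tested native gene of the same library, per coding length, LDH was 222, 205 and 225 times as high on glucose and 62.5, 54.2 and 55.6 times on methanol, a change of -1.92 (SE 0.076). Set against the most abundant gene per length of each library it reached 24.0% ± 3.26 on glucose and 6.93% ± 0.065 on methanol, a change of -1.78 (SE 0.11). In each of these the groups did not overlap. A two-sided exact permutation test of 3 libraries against 3 gave p = 0.1 for each, the smallest p it allows.

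In wild type the single LDH read stands against 62471727 reads over the 6 libraries, or 0.0160 unscaled CPM (95% exact Clopper-Pearson interval 0.000405 to 0.0892). A library with 0 reads allows an LDH level of up to 0.238 to 0.370 unscaled CPM, the level of 3 reads. Set against a limit of 3 reads over the 3 wild-type glucose libraries, the LDH level of LA001-14 was higher by at least 68329-fold. The edgeR test of the strains on glucose, which does not test that bound, gave an adjusted p of 2.88e-24. LDH was introduced into LA001-14 and passed the filter through that strain. The outcome of the strain tests was therefore fixed by the design, and they only check the strain labels. With 2 wild-type libraries the same limit gives at least 41854-fold without wild type on glucose replicate 1, 48294-fold without replicate 2 and 46510-fold without replicate 3. On methanol the ratio of summed reads was 52407 (95% exact counting interval 9406 to 2069996). The edgeR test on methanol, with the same limit, gave an adjusted p of 9.68e-24. The ratio was 31762 when replicate 2 of the wild type on methanol was left out. Leaving out replicate 3, which holds the read, turned it into a lower bound of 11296-fold. Of all genes tested, 62.6% were called between the strains on glucose (30.9% higher and 31.7% lower in LA001-14) and 65.7% on methanol (32.8% higher and 32.9% lower). The wild-type groups, at 0, 0 and 0 against 0, 0 and 1 reads, were not distinguishable at this depth, and no fold between them is given.

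Replicate spread of LDH was like that of native genes counted to a similar depth. Within LA001-14 on glucose the SD of its log2 CPM was 0.0802. The 25 native genes within a factor of 2 of its mean count had a median SD of 0.0981, and 16 of them varied more than LDH. On methanol its SD was 0.103, against a median of 0.0915 over 136 such native genes, of which 47 varied more.

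Among native genes LDH stood near the top on glucose and lower on methanol. Levels of different genes were compared per coding length, as TMM-scaled FPKM, which is TMM-scaled CPM per kilobase of coding sequence. On this scale LDH was at 7166, 6586 and 7314 on glucose and at 2001, 1747 and 1795 on methanol. Its rank among the 5712 coding sequences was 12, 11 and 8 in the glucose libraries and 102, 105 and 106 in the methanol libraries. By mean level 8 native genes were above LDH on glucose and 102 on methanol. All 8 were among the 102, so 94 native genes passed LDH in length-scaled level. By reads, without division by length, LDH ranked 11, 11 and 10 in the glucose libraries and 67, 71 and 71 in the methanol libraries.

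Of the 94 genes that passed LDH, 44 were called higher on methanol, 8 lower and 42 were not called, and their median log2 change was 0.18. That is 46.8% higher and 8.51% lower, beside 34.7% and 29.7% of all genes tested. These genes were chosen by levels in the same libraries, so the counts are a description. Their coding sequences were short: 79.8% were shorter than LDH, compared with 29.9% of all native genes tested. Of the 8 genes above LDH on glucose, 6 were lower (75.0%) and 1 higher (12.5%) on methanol, with a median log2 change of -0.85. The changes of these 8 ran from -1.68 to 1.06, and none fell as far as LDH. These 8 were likewise chosen by levels in the same libraries. In wild type 7 of the 8 were called lower, where 70.3% of all genes tested were called, 35.3% lower and 35% higher, with a median log2 change of -1.72.

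**Figure D2:**
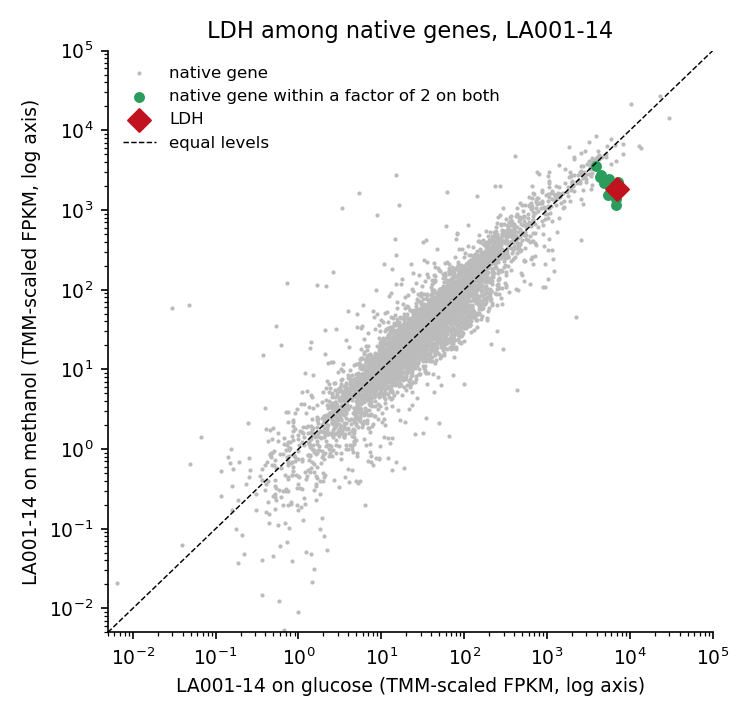
Mean length-scaled level (TMM-scaled FPKM, log axes) of each tested gene in LA001-14 on glucose, horizontal, and on methanol, vertical; genes at 0 in either group are not drawn. LDH is the red diamond, the 9 native genes within a factor of 2 of it on both carbon sources are green, and the dashed line marks equal levels; LDH lies below the line at the lower edge of the most abundant genes.

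Few native genes were as abundant as LDH on glucose, and few native genes of any level fell as far. Over all 5465 native genes tested, 153 (2.8%) fell further than LDH and 94 rose by at least as much as LDH fell. Of the 36 native genes with at least 0.5 times the LDH level on glucose, 2 fell further than LDH, a share no lower than that over all native genes tested. On methanol 33 of the 36 were above LDH. LDH itself fell 3.8-fold, so any of the 36 that changed little would be above it there. Within a factor of 2 of LDH on glucose were 34 native genes, from 3538 to 13657 TMM-scaled FPKM. Of these 34, 8 were higher on methanol, 14 lower and 12 not called, which is 23.5% higher and 41.2% lower beside 34.7% and 29.7% of all genes tested. Their median log2 change was -0.03, beside 0.05 over all native genes tested. The 34 were chosen by their level on glucose, which is 1 side of this comparison. A tilt to lower is partly built in, so the counts are a description. With a window of a factor of 1.5 there were 16 genes and their median was -0.67. The ratios to LDH of the outermost genes inside the window were 0.504 and 1.94, and those of the nearest genes outside it were 0.499 and 3.26.

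In wild type, in libraries that did not choose them, 28 of the same 34 genes were called lower on methanol and 4 higher. That is 82.4% lower and 11.8% higher, beside 35.3% and 35% of all genes tested. Their median log2 change in wild type was -1.19, beside -0.01 over all native genes tested. Their median level went from 5014 to 4408 TMM-scaled FPKM in LA001-14 and from 5708 to 2725 in wild type. The fall of LDH in LA001-14 was larger than the median fall of these genes in either strain. Of the 34, 2 fell further than LDH in LA001-14 and 4 in wild type, beside 153 and 286 of all 5465 native genes tested. The tilt to lower in wild type was not particular to these 34. Of the 94 genes that passed LDH, some of them the same genes, 78.7% were called lower and 17.0% higher in wild type.

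On methanol the neighbourhood of LDH was more crowded, with 139 native genes within a factor of 2 of its level. Of these, 72 were higher on methanol than on glucose, 21 lower and 46 not called, with a median log2 change of 0.25, beside 0.05 over all native genes tested. That is 51.8% higher and 15.1% lower, beside 34.7% and 29.7% of all genes tested. The 139 were chosen by their level on methanol, which is 1 side of this comparison. A tilt to higher is partly built in, so the counts are a description. In wild type 31 of the 139 were higher and 91 lower (22.3% and 65.5%), where 35% and 35.3% of all genes tested were called. Only 1 of the 139 was above LDH on glucose. Within a factor of 2 of LDH on both carbon sources were 9 native genes, of which 8 were lower on methanol (88.9%) and 1 was not called. A fall is built into that choice, since LDH itself fell. In wild type 7 of the 9 were lower (77.8%, beside the 35.3% of all genes tested), 1 higher and 1 not called, with a median log2 change of -1.37. With the window at a factor of 1.5 there were 5 such genes.

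The native gene most like LDH in level and change was CB0128.t1. Likeness was the root mean square distance of log2 length-scaled level over the 6 LA001-14 libraries. CB0128.t1 (1080 bases) was at a distance of 0.222, and the median distance over 5711 native genes was 6.99. It was also the gene next above LDH on glucose. In LA001-14 CB0128.t1 stood at 7811, 6976 and 7038 TMM-scaled FPKM on glucose and at 2567, 2045 and 2208 on methanol. It was above LDH in 2 of the 3 glucose libraries and in all 3 methanol libraries. Its log2 change was -1.68 (SE 0.11, edgeR adjusted p = 1.81e-10). The log2 ratio of LDH to CB0128.t1 within a library was -0.12 to 0.06 on glucose and -0.36 to -0.23 on methanol, so LDH fell by 0.24 more on the log2 scale (SE 0.066). The groups did not overlap in this ratio.

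CB0128.t1 in wild type was higher than in LA001-14 and also fell on methanol. Its level in LA001-14 relative to wild type was -0.82 on the log2 scale on glucose (edgeR adjusted p = 6.54e-06) and -0.95 on methanol (adjusted p = 8.79e-07). In wild type it stood at 9564, 14078 and 14971 TMM-scaled FPKM on glucose and at 4507, 4286 and 4364 on methanol. Its log2 change there was -1.55 (SE 0.2, edgeR adjusted p = 3.65e-10). The difference of its change between the strains was -0.12 and did not pass the test (edgeR adjusted p = 0.564), which 58.7% of all genes tested passed. The low glucose value is in replicate 1, which stood apart in its group as a whole. The chi-square per degree of freedom between libraries was 25 and 32.3 for its pairs and 5.59 for the other pair. Without it the wild-type change of CB0128.t1 was -1.75 and the difference between strains 0.02.

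The second was CB4592.t1 (750 bases), at a distance of 0.319. It fell from 7162, 6476 and 6567 TMM-scaled FPKM on glucose to 1508, 1261 and 1317 on methanol in LA001-14. Its log2 change of -2.31 (SE 0.09, edgeR adjusted p = 3.6e-15) was larger than that of LDH, and the log2 ratio of LDH to CB4592.t1 was 0.06 on glucose and 0.44 on methanol, without overlap. In wild type CB4592.t1 stood at 4723, 6123 and 6568 on glucose and at 866.5, 819 and 838 on methanol. That change of -2.79 (SE 0.15, edgeR adjusted p = 5.13e-17) was larger than in LA001-14 (difference 0.48, adjusted p = 0.00545). CB4592.t1 was second with all 6 libraries, but without any 1 of the glucose libraries CB5393.t1 took its place. CB0128.t1 was first with each library left out, and was second when distance was taken over log2 CPM, with no division by length.

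**Figure D3:**
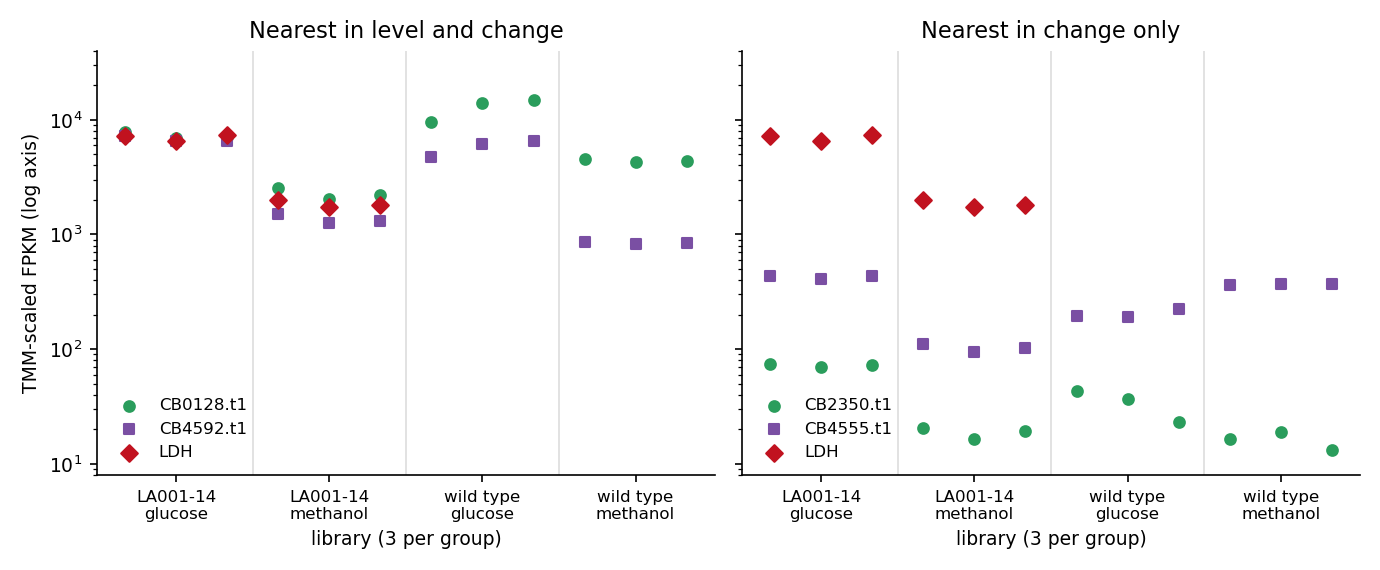
Length-scaled level (TMM-scaled FPKM, log axis) of LDH and of native genes like it in each library, 3 per group; LDH is drawn for LA001-14 only, since wild type had at most 1 read. Left, CB0128.t1 and CB4592.t1, nearest in level and change, which follow LDH in LA001-14 and also fall on methanol in wild type; right, CB2350.t1 and CB4555.t1, nearest in change only, which lie below LDH and move in opposite directions in wild type.

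Native genes beside LDH on 1 carbon source only stood apart from it on the other, and each changed less than LDH. Taking genes that are beside LDH on 1 carbon source only builds this gap in. CB2629.t1 (384 bases), next below LDH on glucose at 7234, 6363 and 7134 TMM-scaled FPKM, was at 4392, 3893 and 3969 on methanol. It was above LDH in 1 of 3 glucose libraries, and LDH fell by 1.17 more than CB2629.t1 on the log2 scale (SE 0.02). In wild type CB2629.t1 rose from 7788, 7461 and 7544 on glucose to 18086, 18583 and 18028.5 on methanol (log2 change 1.26, edgeR adjusted p = 8.94e-13). CB2947.t1 (792 bases), next above LDH on methanol, stood at 2168, 1932 and 1729 on glucose and at 2081, 1850.5 and 1834 on methanol. Its log2 change was -0.02 and did not pass the test (edgeR adjusted p = 0.881), and the levels of its 2 groups overlapped. In wild type CB2947.t1 fell from 1893, 2110.3 and 2179 to 1138, 1101 and 1097 (log2 change -0.89, edgeR adjusted p = 2.08e-09).

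CB2297.t1 (1470 bases), next below LDH on methanol, went from 3499, 3264 and 3349 TMM-scaled FPKM on glucose to 1986, 1804 and 1746 on methanol. Its log2 change was -0.87 (SE 0.063, edgeR adjusted p = 1.19e-08). On methanol the levels of LDH and CB2297.t1 overlapped, with CB2297.t1 above in 1 of 3 libraries, while CB2947.t1 was above LDH in all 3. In wild type CB2297.t1 rose from 1815, 2182 and 2314 on glucose to 3423, 3149.9 and 3538 on methanol (log2 change 0.68, edgeR adjusted p = 4.27e-07).

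For the 7 native genes named, the ratio of LDH to the gene was compared between carbon sources by a two-sided exact permutation test, which with 3 libraries against 3 cannot go below 0.1. For 6 of them p was 0.1 (0.117 adjusted over the 7), and for CB2350.t1, described next, it was 0.7. All 7 were chosen by their levels or changes in the same libraries, so these p-values are only a description. CB2350.t1 was taken as the gene nearest to LDH in change, which builds in its lack of a difference. For genes taken as beside LDH on only glucose or only methanol, a difference is likewise built in.

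When level was set aside, many native genes changed as LDH did. Nearly all of them were far less abundant than LDH, as were nearly all native genes. Among 5034 native genes with a mean of at least 50 reads, 196 had a log2 change within 0.5 of that of LDH. The outermost inside the window were at -2.41 and -1.43 and the nearest outside at -2.43 and -1.42. Their median level was 72.0 TMM-scaled FPKM on glucose and 21.1 on methanol, compared with medians of 32.5 and 32.3 over all native genes tested. Of the 196, 3 were also within a factor of 2 of LDH in level on glucose, beside 34 of all 5465 native genes tested. The same 3 were within it on both carbon sources, beside 9 of the 5465. So the 196 were near LDH in level no less often than native genes at large. The coding sequences of the 196 were longer than those of LDH's neighbours in level. Their median length was 1622 bases, and 18.9% were shorter than LDH, where 73.5% of the 34 genes near it in level on glucose were shorter.

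Most of these 196 genes also fell on methanol in wild type, in libraries that did not choose them. There 157 were called lower, 20 higher and 19 were not called. That is 80.1% lower and 10.2% higher, where 35.3% and 35% of all genes tested were called in those directions. Their median log2 change in wild type was -1.09, and it was -1.67 in LA001-14, where the choice fixed it. The wild-type changes ran from -6.97 to 4.67, and 16 of the 196 rose by at least 2-fold in fitted value. Without wild type on glucose replicate 1 the counts were 158 lower and 19 higher, and the median was -1.06.

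**Figure D4:**
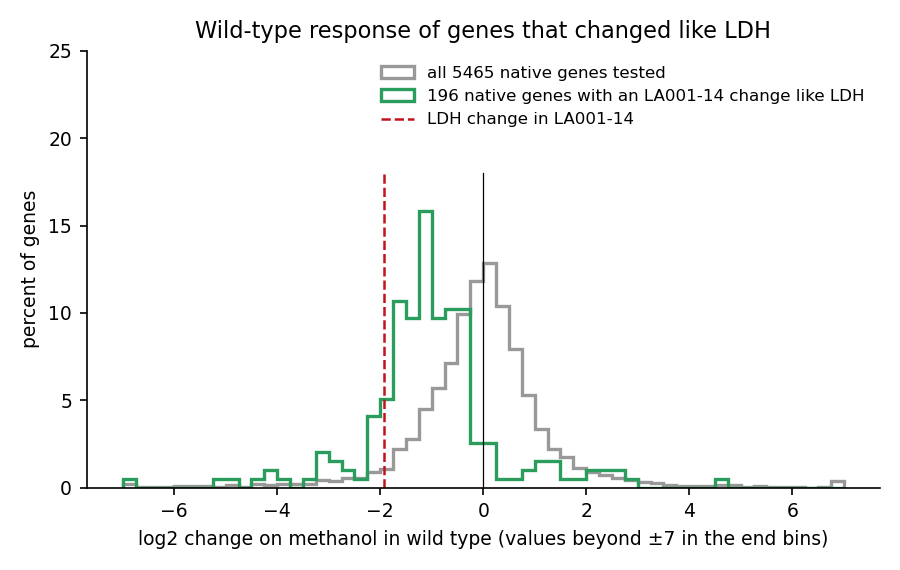
Log2 change on methanol in wild type (horizontal) as the percent of genes in bins (vertical), for all 5465 native genes tested, grey, and for the 196 native genes whose change in LA001-14 was within 0.5 of that of LDH, green. The dashed red line marks the LDH change in LA001-14, -1.93; the green genes lie mostly below 0, around a median of -1.09.

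The genes nearest to LDH in change alone did not share a wild-type response. CB2350.t1 (1326 bases) was nearest, at a distance of 0.0668 after each gene's own mean was subtracted. It stood at 74.7, 70.5 and 72.4 TMM-scaled FPKM on glucose and at 20.6, 16.5 and 19.4 on methanol in LA001-14. Its log2 change was -1.94 (SE 0.097, edgeR adjusted p = 2.67e-09). The ratio of LDH to CB2350.t1 differed by 0.03 between carbon sources (SE 0.066), with groups that overlapped, which the choice of the nearest gene builds in. In wild type CB2350.t1 stood at 42.9, 36.6 and 23.3 on glucose and at 16.4, 18.9 and 13.2 on methanol. That fall of -1.09 (SE 0.3, edgeR adjusted p = 1.24e-05) was smaller than the fall in LA001-14 (difference -0.85, adjusted p = 0.00463).

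CB4555.t1 (2178 bases), at a distance of 0.0746, fell from 432, 410.2 and 433 TMM-scaled FPKM on glucose to 110.4, 93.7 and 102 on methanol in LA001-14. Its log2 change there was -2.06 (SE 0.073, edgeR adjusted p = 2.34e-16). In wild type CB4555.t1 rose from 195, 189.7 and 225 on glucose to 363, 368 and 368 on methanol. That change was 0.85 (SE 0.077, edgeR adjusted p = 8.97e-10), opposite to the change in LA001-14. Of the 5 genes nearest to LDH in change, CB2350.t1 was called lower on methanol in wild type and the other 4 higher, where 35.3% of all genes tested were called lower and 35% higher.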

How the data were processed

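Each deposited file holds 1 library and gives, for every coding sequence, its length, its reads and its FPKM, per the file headers. Read counts are whole numbers that the authors deposited without normalization. The authors' FPKM equalled count over coding length and library total to within 2.4e-06 percent. Bowtie2 2.5.4 is named in the submitters' processing notes. The counter, the genome build, the annotation and the strand setting were not given in the sources used here. Total RNA was extracted with Trizol and DNase-treated on columns, per the labels' protocols. No file holds the LDH sequence, so none is shown, and KanR was not analysed here.

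Totals ranged from 8045977 to 14107813 reads. The labels do not say that replicates came from separate cultures, so p-values reflect only how much these libraries vary. Replicates of each group differed by more than counting noise (chi-square per degree of freedom 4.03 to 32.3). Intervals and limits cover counting error only.

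The test on counts was that of edgeR 4.0.16 (R 4.3.3), after filterByExpr (5466 kept, 246 removed; LDH passed through LA001-14) and TMM, as a robust quasi-likelihood fit with 1 mean per group over all 12 libraries, with Benjamini-Hochberg adjustment over all genes tested and a threshold of 0.05. The test was checked on simulated data in which most genes did not change. That check does not cover comparisons in which most genes are called, as here. Standard errors are computed over replicates from log2 CPM (2 reads added), and distances use 0.5 reads added. Permutation tests used scipy 1.17.1. Alternatives included other scalings, DESeq2 1.42.0, limma 3.58.1 on log2 FPKM with a pseudocount of 1 or 0.1, no filter, a replicate block and leaving out each library. The wild-type fold is against 3 reads where a group had none.

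Named were LDH, the 2 native genes nearest to it in level and change, the 2 nearest in change among genes with a mean of at least 50 reads, and the genes next above and below it on each carbon source. CB5393.t1 was named after its values were seen. Members, windows and lists were chosen with earlier results of these data known.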

Additional observations from a re-analysis of the deposited data

Results flagged for a closer look

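For 6 of the 7 native genes chosen by the rule for named genes, the methanol change differed between the strains by a test of the difference itself (edgeR, adjusted p under 0.05), where 58.7% of all genes tested did so. The rule used values in LA001-14, which also enter this difference, so the count of genes is only a description. The difference, LA001-14 minus wild type on the log2 scale, was -2.91 for CB4555.t1 (adjusted p = 1.48e-16), -2.02 for CB2629.t1 (adjusted p = 1.74e-13) and -1.55 for CB2297.t1 (adjusted p = 2.91e-10). Each of these 3 fell in LA001-14 and rose in wild type. It was -0.85 for CB2350.t1 (adjusted p = 0.00463), which fell in both strains and further in LA001-14. It was 0.48 for CB4592.t1 (adjusted p = 0.00545), which fell in both and further in wild type, and 0.87 for CB2947.t1 (adjusted p = 1.29e-06), which fell in wild type alone by the test. For CB5393.t1, named after its values were seen, the difference was -0.58 (adjusted p = 0.000464), and it fell in both strains. No such difference can be given for LDH, since wild type had a single read. Groups of 3 libraries were not tested for outlying values.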

How the results depend on the processing

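The methanol change of LDH in LA001-14 kept its direction and its call under all 16 alternatives, from -2.0 to -1.88 on the log2 scale. It was -1.93 with the replicate block and -1.99 to -1.88 with each library left out. Both strain comparisons of LDH also kept their call under 16 alternatives each, an outcome fixed by the design, since LDH was introduced into LA001-14. Between 3239 and 3552 genes were called on methanol in LA001-14. Their split by direction depended on the scaling. It was 1899 higher and 1624 lower in the main fit, and 1859 and 1594 with the replicate block. It was 1744 and 1772 with DESeq2, and 1643 and 1729 with library totals. Same-numbered libraries correlated in their deviations at -0.25 to 0.12, over 0.1 in 1 of 18 pairs. Between LA001-14 on glucose and on methanol they correlated at 0.03 to 0.12, and differently numbered libraries at -0.13 to 0.05. These correlations cannot show whether same-numbered libraries shared a culture or day. The replicate block changed no call of LDH or of the 7 native genes chosen by the rule for named genes. It left 3453 genes called in place of 3523. With library totals in place of TMM, LDH stood at 7815 CPM on glucose and the wild-type median of the 196 genes was -1.22. Stricter windows gave a median of -0.67 for genes near LDH in level on glucose, 5 genes near it on both carbon sources and 84 near it in change. By CPM rather than level per length, 3 of the 5 genes nearest in level and change were shared. With each library left out, the level median ran from -0.1 to 0.02 and the genes near on both from 9 to 13. Those near in change ran from 162 to 226, and their wild-type median from -1.13 to -1.06. The shared genes nearest in level and change were 5 of 5. The change of CB2947.t1 in LA001-14, not called, ran from -0.09 to 0.07 with each library left out. It was 0.07 without LA001-14 on glucose replicate 1, 0.01 without LA001-14 on methanol replicate 2 and 0.02 without replicate 3, and the strain difference of CB0128.t1, also not called, was 0.02 without wild type on glucose replicate 1. Alternatives for single native genes, LDH levels and LDH spread, library totals for the nearest genes, and leave-one-out for native gene groups were chosen after seeing the data. CB5393.t1 was not recomputed under them.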
